A study of Mus musculus with 8 samples.

Results

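Lrrc58 and 6 genes of cysteine and taurine metabolism were followed in epididymal white fat, the visceral fat pad along the epididymis of male mice. They were picked by name from the 37417 genes of the deposited table: Lrrc58, the cysteine-catabolic genes Cdo1, Csad and Got1, the transsulfuration genes Cth and Cbs, and the taurine transporter gene Slc6a6. All 7 members passed the filter on low counts, which 14800 genes passed. Fat was compared between 4 knockout mice, labelled Adiponectin-Cre ERT2-Atg3 flox/flox, and 4 mice labelled WT. All were C57Bl/6 males that received tamoxifen and ate chow; the sources used here give neither their age nor whether the wild-type mice carried a floxed allele or Cre. The adiponectin promoter drives Cre in adipocytes, so the other cells of the pad keep Atg3, and the RNA came from whole tissue, in which fewer cells of a type and less RNA per cell cannot be told apart.

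Cysteine dioxygenase, the product of Cdo1, oxidises cysteine to cysteine sulfinate. Csad decarboxylates that product to hypotaurine, the direct precursor of taurine, while Got1, the cytosolic aspartate aminotransferase, can divert it by transamination. Cbs and Cth make cysteine from homocysteine by transsulfuration, and Slc6a6 imports taurine with sodium. White fat is known as a tissue rich in Cdo1, and the cysteine dioxygenase protein is degraded by the proteasome when cysteine is scarce. LRRC58 is a leucine-rich repeat protein that has been described as the receptor through which a cullin-RING ubiquitin ligase recognises cysteine dioxygenase.

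The members were chosen with results of this same genotype comparison in view, so their differences between knockout and wild-type fat are a description and are used to support nothing else. Levels are CPM, read counts scaled to a common library total by TMM (a correction for library composition), except where FPKM, the authors' count scaled by exon length and library total, is named. Library 1 to 4 means the mouse number in the labels. Log2 fold changes are knockout over wild-type, from edgeR's quasi-likelihood fit across all 14800 tested genes.

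Promoter sequence is shown for the member with the lowest p and for 2 members whose knockout means stood above wild-type, with matches to 3 short motifs in capitals. The 250 bases before the RefSeq start (build GRCm38.p6) are written 5′ to 3′ on the gene's strand. They lie at chr16:37868150-37868399 on the plus strand for Lrrc58, chr17:31637206-31637455 on the minus strand for Cbs and chr19:43524606-43524855 on the minus strand for Got1.
Lrrc58: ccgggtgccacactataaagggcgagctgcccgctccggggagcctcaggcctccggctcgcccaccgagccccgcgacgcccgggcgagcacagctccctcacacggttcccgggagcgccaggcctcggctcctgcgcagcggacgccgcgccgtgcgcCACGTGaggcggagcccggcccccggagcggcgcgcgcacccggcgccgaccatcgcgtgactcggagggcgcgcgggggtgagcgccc
Cbs: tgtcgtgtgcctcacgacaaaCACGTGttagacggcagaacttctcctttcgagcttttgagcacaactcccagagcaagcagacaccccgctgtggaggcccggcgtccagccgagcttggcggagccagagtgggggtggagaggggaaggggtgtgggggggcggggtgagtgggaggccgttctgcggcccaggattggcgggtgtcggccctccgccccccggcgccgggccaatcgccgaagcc
Got1: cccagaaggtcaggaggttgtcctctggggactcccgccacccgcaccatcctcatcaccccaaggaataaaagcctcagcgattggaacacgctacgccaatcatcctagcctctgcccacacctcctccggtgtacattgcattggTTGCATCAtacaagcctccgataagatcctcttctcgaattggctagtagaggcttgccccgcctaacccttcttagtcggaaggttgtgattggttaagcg
The motifs searched on both strands were CACGTG, an E-box that reads the same on both strands, TGATGNAA, written here for the amino acid response element, and TGACNNNGC, the core of the antioxidant response element. Lrrc58 and Cbs held 1 CACGTG each, as did 6.02% of all 32851 RefSeq promoters of this length. Got1 held 1 TGATGNAA on the opposite strand, as did 3.45% of promoters. TGACNNNGC was in none of the 5 windows found for 4 members (0, the 2 Csad windows included) and in 10.2% of all promoters. The 2 Csad windows, which are not printed, held no CACGTG and no TGATGNAA either. Got1 held no CACGTG, and Lrrc58 and Cbs held no TGATGNAA. The Lrrc58 window was rich in G and C, at 79.2% against a median of 52.4% over all promoters. The motifs do not overlap each other here, and a match is a description of letters only.

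The deleted gene was checked first. Atg3 held 30.5, 32.2, 30.8 and 27.8 CPM in knockout libraries 1 to 4, against 49.1, 44.5, 53.6 and 53.5 CPM in wild-type libraries 1 to 4. Every knockout library lay below every wild-type library, on the side that its label gives. The log2 fold change was -0.73 (SE 0.086). The gene was called by edgeR's quasi-likelihood test (adjusted p = 0.0168); the call was lost, with the direction kept, without knockout library 2 (0.0745), wild-type library 1 (0.0543) or 4 (0.0705), and without both knockout libraries 2 and 3 (0.0989). Total counts ran from 12952190 to 21688464 in knockout and from 10986375 to 17128811 in wild-type libraries. Adipocyte markers defined the tissue in both genotypes: the 11 genes, Adipoq and Plin1 among them, summed to 27999 to 32574 CPM in knockout and 32757 to 40133 CPM in wild-type libraries. Knockout libraries 2 and 3 stood apart on the first principal component, at 51.6 and 55.5 against -31.9 to -1.57 for the other 6. In these 2 libraries 14 duct epithelium markers (Epcam, Foxj1 and Pax8 among them) summed to 500.2 and 519 CPM, against 46.1 and 50.4 CPM in knockout libraries 1 and 4 and 10.5 to 31.4 CPM in wild-type libraries. Liver markers other than Cyp2e1, which fat itself expressed at 2688 to 4902 CPM, summed to 62.3 and 98.3 CPM in knockout libraries 1 and 4, 22.7 and 19.5 CPM in libraries 2 and 3, and 15.6 to 30.3 CPM in wild-type libraries. Markers of epididymis and sex glands (10 genes) came to 71.9, 2.15, 44.4 and 0.481 CPM together in knockout libraries 1 to 4, against 0.172 to 5.99 CPM in wild-type libraries. Most of the sum was the prostate gene Pbsn in knockout library 1, at 67.9 CPM, and the epididymis gene Crisp1 in knockout library 3, at 36.2 CPM. Mitochondrial genes took 5.03 to 6.08% of counts in knockout and 3.05 to 4.93% in wild-type libraries. For the members and the 2 genes of lowest p in each pathway list, log2 fold changes without knockout libraries 2 and 3, or without 1 and 4, are given below where they differ by over 1.5 times or change a call.

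Lrrc58 was lower in knockout fat. Its level was 93.2, 94.2, 97.1 and 102 CPM in knockout libraries 1 to 4, against 141, 139, 138 and 138 CPM in wild-type libraries 1 to 4. The genotypes did not overlap, and the gap between them was wider than the range within either. The means were 96.7 ± 4.10 CPM in knockout and 139 ± 1.40 CPM in wild-type fat (SD, n = 4 each), 1.44-fold lower in knockout fat, with a log2 fold change of -0.52 (SE 0.062). The coefficient of variation was 4.24% among knockout and 1.01% among wild-type mice, the smallest of the 7 members in both genotypes. Per length the levels were 10.9, 10.98, 11.8 and 11.4 FPKM in knockout libraries 1 to 4, against 17.3, 16.02, 15.04 and 15.8 FPKM in wild-type libraries 1 to 4, again without overlap. The log2 fold change was -0.49 without knockout libraries 2 and 3 and -0.55 without libraries 1 and 4. The adipocyte marker sum was also lower in every knockout library, by a narrow gap. Its highest knockout value was 32574 CPM and its lowest wild-type value 32757 CPM. Of its 11 genes, 1 (Cidec) had a higher mean in knockout fat, and libraries overlapped for some others, Plin1 among them. The sum of 6 endothelial markers was lower too, at 1322 to 1525 CPM in knockout and 1641 to 1867 CPM in wild-type libraries. The part of either sum in the Lrrc58 difference was not tested.

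**Figure D1:**
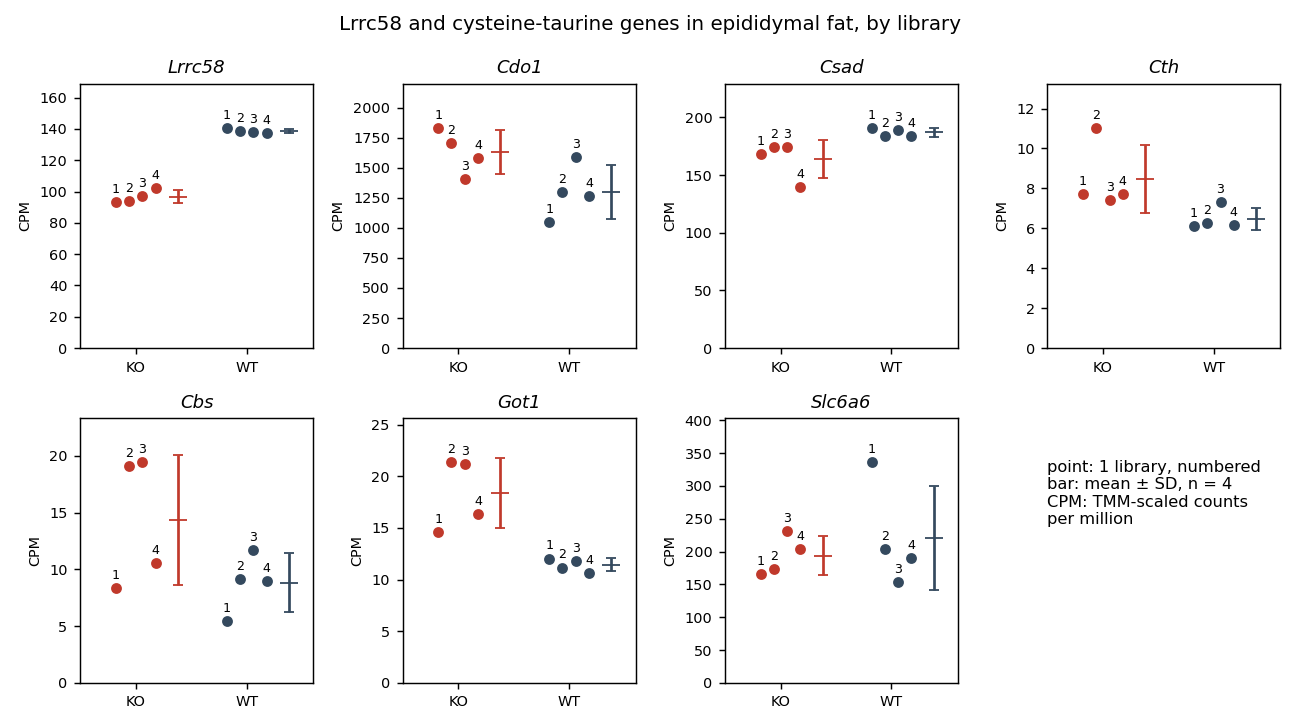
CPM (TMM-scaled, axes from 0) of the 7 genes in knockout (KO, left) and wild-type (WT, right) libraries, with library numbers at the points and mean ± SD of 4 libraries beside them. Lrrc58 sits at 93.2 to 102 CPM in knockout and 138 to 141 CPM in wild-type libraries, while the Cbs points of knockout libraries 2 and 3 lie apart from those of libraries 1 and 4.

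Of the 7 members, 1 was called at an adjusted p of 0.05 over all tested genes, Lrrc58 (edgeR's quasi-likelihood test, adjusted p = 0.0168), beside 0.405% of all tested genes in either direction, 0.277% higher and 0.128% lower in knockout fat. The adjusted p of the other 6 ran from 0.0926 for Got1 to 0.727 for Slc6a6. Libraries of the genotypes did not overlap for 4 members, Lrrc58 and Csad lower and Cth and Got1 higher in knockout fat, beside 8.86% of all tested genes, 4.32% higher and 4.54% lower in knockout fat. Since this contrast was in view when the members were picked, nothing is read from either count. The Lrrc58 call depended on single libraries. It was lost without knockout library 2 (adjusted p = 0.0932) or 3 (0.0526) and without wild-type library 1 (0.0543), 2 (0.0635) or 4 (0.0656), while its log2 fold change stayed between -0.55 and -0.50 with each library left out in turn. It was also lost without both knockout libraries 2 and 3 (adjusted p = 0.173) and kept without 1 and 4 (0.00598).

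Lrrc58 lies on chromosome 16 (37868389 to 37888858, plus strand, build mm10). The GENCODE M21 model has 1098 coding bases in 4 exons, and a 3' untranslated region of 7396 bases makes up 86.0% of its 8604 exonic bases. Most bases that could give a Lrrc58 count thus lie downstream of the stop codon. A pseudogene, Gm15725, lies wholly inside exon 4, on the same strand and 1080 bases past the stop codon, so reads there cannot be assigned with certainty. Gm15725 held 5.31, 3.48, 5.58 and 6.58 CPM in knockout libraries 1 to 4, against 9.63, 9.76, 8.45 and 11.5 CPM in wild-type libraries 1 to 4. Adding its counts to those of Lrrc58 gave 102 ± 5.14 CPM in knockout and 149 ± 1.55 CPM in wild-type fat (SD, n = 4 each), 1.46-fold lower. The direction was thus the same with and without the reads counted for Gm15725. Any reads counted for neither gene cannot be seen in these counts.

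Both genes with the deleted or lowered transcript lie on chromosome 16, with Atg3 7.27 Mb downstream of Lrrc58. Of the 460 tested genes of this chromosome, 3 were called by edgeR: Atg3, Lrrc58 and Cbr3, a carbonyl reductase gene. Among the 33 tested genes between the end of Lrrc58 and the start of Atg3, 0 were called by edgeR, 7 had an unadjusted p under 0.05, against 2394 of all 14800, and the median log2 fold change was -0.05. The libraries of the genotypes did not overlap for 4 of the 33, or 12.1%, beside 8.86% of all tested genes. Among the 4 was Gsk3b, a protein kinase gene, which like Cbr3 was singled out once its values were known. Gsk3b averaged 79.1 CPM in knockout and 91.4 CPM in wild-type fat (log2 fold change -0.21, adjusted p = 0.171). On the other side of Lrrc58, the libraries overlapped for the 3 nearest tested genes, Rabl3, Ndufb4 and Fstl1.

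Over the 8 libraries, the genes whose log2 CPM was most like that of Lrrc58 were Ints7, a subunit of the Integrator complex (Pearson's r 0.98), Atxn1, the ataxin-1 gene (0.97), Pofut1, an O-fucosyltransferase that modifies Notch receptors (0.97), Tirap, a Toll-like receptor adaptor (0.97), and Taf2, a subunit of the general factor TFIID (0.96). They head 12746 candidates with at least 1 CPM. All 5 were lower in every knockout library than in any wild-type library, as Lrrc58 was, so the genotype difference is shared by these points. Around the genotype means the correlations were 0.68, 0.83, 0.67, 0.89 and 0.94, in the order just given. Library depth and composition are shared by all points too, and the 5 were picked as the highest of many, so these values are a description.

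Cdo1 was the most abundant member in both genotypes. It ranked 28th by mean FPKM among the 37417 genes in knockout and 35th in wild-type fat, with 1067 ± 112 FPKM in knockout and 839 ± 103 FPKM in wild-type fat (SD, n = 4 each). It held 1832, 1702, 1403 and 1581 CPM in knockout libraries 1 to 4, against 1046, 1297, 1589 and 1267 CPM in wild-type libraries 1 to 4. The genotypes overlapped: wild-type library 3 stood above knockout libraries 3 and 4. The log2 fold change was 0.33 (SE 0.15), and it ran from 0.24 to 0.44 with each library left out in turn.

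Csad was the second most abundant member per length. It held 168, 174, 174 and 139 CPM in knockout libraries 1 to 4, against 191, 184, 189 and 184 CPM in wild-type libraries 1 to 4. No knockout library reached the wild-type range, and library 4 was the lowest of all. The log2 fold change was -0.19 (SE 0.086), and -0.12 without knockout library 4 or without libraries 1 and 4. Without knockout libraries 2 and 3 it was -0.27. On the FPKM scale, which uses total counts, the genotypes overlapped, with 59.1 to 80.5 FPKM in knockout and 78.2 to 89.3 FPKM in wild-type libraries.

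The level of Cdo1 relative to Csad, the enzyme after it on the path to taurine, was taken within each library from FPKM. The ratio was 16.1, 14.5, 11.9 and 16.8 in knockout libraries 1 to 4, against 8.10, 10.4, 12.4 and 10.2 in wild-type libraries 1 to 4. The genotypes overlapped in knockout library 3 and wild-type library 3. Cdo1 relative to Lrrc58 was 111, 102, 81.2 and 86.9 in knockout libraries 1 to 4, against 41.8, 52.6, 64.7 and 51.8 in wild-type libraries 1 to 4, without overlap. The second ratio combines a lower Lrrc58 with the Cdo1 values and adds no measurement of its own.

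Got1 was higher in knockout fat in every library. It held 14.6, 21.3, 21.2 and 16.3 CPM in knockout libraries 1 to 4, against 12.04, 11.2, 11.8 and 10.7 CPM in wild-type libraries 1 to 4. The genotypes did not overlap, and knockout libraries 2 and 3, which carried the duct epithelium markers, were the highest. The means were 18.4 ± 3.41 CPM in knockout and 11.4 ± 0.622 CPM in wild-type fat (SD, n = 4 each), 1.61-fold higher, with a log2 fold change of 0.69 (SE 0.15). Without knockout libraries 2 and 3 the log2 fold change was 0.45, and without libraries 1 and 4 it was 0.88. Got1 was called without knockout library 1 (adjusted p = 0.0343), without libraries 1 and 4 (0.00328) and by DESeq2 (0.00197). It was not called in the other 16 alternatives, with an adjusted p of 0.251 without knockout library 2, 0.399 without libraries 2 and 3 and 0.129 by limma-voom. Knockout libraries 1 and 4 also lay above the wild-type range for Got1. They had 46.1 and 50.4 CPM of duct epithelium markers, against 10.5 to 31.4 CPM in wild-type libraries. Liver markers other than Cyp2e1 were at 62.3 and 98.3 CPM there, against 15.6 to 30.3 CPM in wild-type libraries. The part of other cells in the Got1 level was not tested.

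The transsulfuration genes were the least abundant members, with 3.76 ± 0.761 FPKM for Cth and 4.34 ± 1.83 FPKM for Cbs in knockout fat and 2.83 ± 0.145 FPKM for Cth and 2.59 ± 0.650 FPKM for Cbs in wild-type fat (SD, n = 4 each). Cth held 7.70, 11.04, 7.42 and 7.74 CPM in knockout libraries 1 to 4, against 6.11, 6.29, 7.30 and 6.15 CPM in wild-type libraries 1 to 4. The genotypes did not overlap, but knockout library 3 and wild-type library 3 lay next to each other. With 100 to 161 reads in knockout and 71 to 107 reads in wild-type libraries, Cth rested on the fewest counts. Its log2 fold change was 0.39 (SE 0.17), and 0.24 without knockout library 2.

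Cbs split the knockout libraries. It held 8.39, 19.1, 19.4 and 10.5 CPM in knockout libraries 1 to 4, against 5.42, 9.17, 11.7 and 8.97 CPM in wild-type libraries 1 to 4. Knockout libraries 2 and 3 were the highest, while libraries 1 and 4 lay inside the wild-type range. The log2 fold change was 0.70 (SE 0.32) with all 8 libraries. It was 0.11 without libraries 2 and 3 and 1.11 without libraries 1 and 4, where Cbs was called (edgeR's adjusted p = 0.0382). The coefficient of variation of Cbs, 39.9% among knockout mice, was the highest of the members there. Duct epithelium markers were at 500.2 and 519 CPM in the 2 libraries that set this value, and their part in it was not tested.

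Slc6a6 varied more between wild-type mice than between genotypes. It held 166, 174, 232 and 203 CPM in knockout libraries 1 to 4, against 336, 204, 154 and 191 CPM in wild-type libraries 1 to 4. The genotypes overlapped, and wild-type library 1 stood above all others. The log2 fold change was -0.19 (SE 0.23), and without wild-type library 1 it was 0.08.

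**Figure D2:**
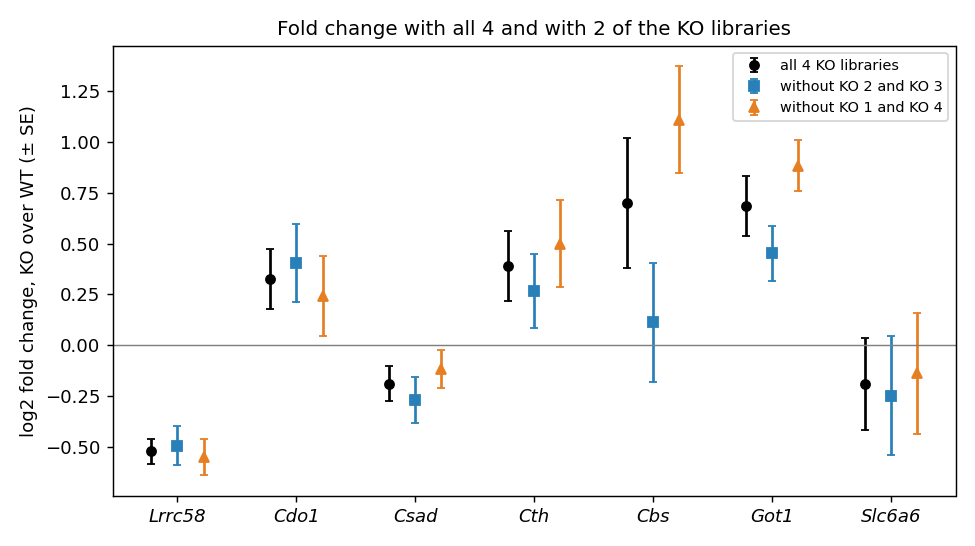
Log2 fold change (knockout over wild-type, ± SE, vertical axis) of the 7 genes with all 4 knockout libraries, without knockout libraries 2 and 3, and without knockout libraries 1 and 4. Lrrc58 stays between -0.55 and -0.49, whereas Cbs runs from 0.11 to 1.11 and Got1 from 0.45 to 0.88.

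Ordered by mean FPKM, the members ran Cdo1, Csad, Slc6a6, Lrrc58, Got1, Cbs and Cth in knockout fat and Cdo1, Csad, Slc6a6, Lrrc58, Got1, Cth and Cbs in wild-type fat. Cth and Cbs, neighbours at the low end, overlapped between libraries in both genotypes. Got1 and Cbs overlapped in knockout libraries, at 5.78 to 8.74 FPKM for Got1 and 2.52 to 6.08 FPKM for Cbs. The ranges of the other neighbours in the order did not overlap within a genotype. The place of Lrrc58 was the same in both genotypes, after Slc6a6 and before Got1.

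**Figure D3:**
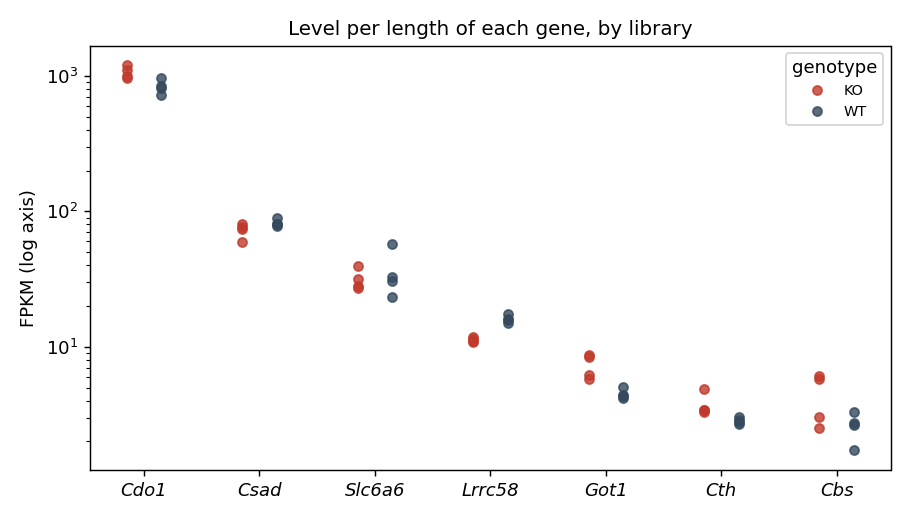
FPKM (log axis) of each gene in each knockout (KO, left of each pair) and wild-type (WT, right) library, with genes ordered by their wild-type mean. Levels run from 960.6 to 1202 FPKM for Cdo1 in knockout libraries down to 2.52 to 6.08 FPKM for Cbs in the same libraries.

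The wider pathway was measured through 7 lists of 65 genes. They cover the rest of taurine synthesis and transport, the methionine cycle, sulfide metabolism, cysteine uptake and use, the malate-aspartate shuttle and cullin-elongin ubiquitin ligases. Gadl1, Baat, Bhmt, Bhmt2, Slc7a9, Slc3a1 and Lrr1 did not pass the filter on low counts. Of the 58 tested genes, 0 rose, 0 fell and 58 did not pass in edgeR's quasi-likelihood test over all genes, beside 0.405% of all tested genes called; 11 had an unadjusted p under 0.05, against 2394 of all 14800. DESeq2 called 2, Gclm and Gnmt, and limma-voom called 0. The median log2 fold change was 0.07, beside -0.01 over all tested genes. Libraries did not overlap for 5 of the 58, 4 higher and 1 lower in knockout fat, beside 8.86% of all tested genes, 4.32% higher and 4.54% lower.

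Taurine synthesis besides the members had 4 tested genes, with a median log2 fold change of 0.09. Got2, the mitochondrial aspartate aminotransferase that also serves the malate-aspartate shuttle, averaged 30.1 ± 6.67 CPM in knockout and 21.8 ± 2.20 CPM in wild-type fat (SD, n = 4 each; log2 fold change 0.47, edgeR's adjusted p = 0.201). Like Got1, it was highest in knockout libraries 2 and 3, at 34.8 and 36.6 CPM, against 22.5 and 26.6 CPM in libraries 1 and 4. Got2 had a log2 fold change of 0.19 without knockout libraries 2 and 3 and of 0.70 without libraries 1 and 4, where it was called (edgeR's adjusted p = 0.00903). Ado, which makes hypotaurine from cysteamine, averaged 27.3 CPM in knockout and 29.2 CPM in wild-type fat, and Fmo1, which oxidises hypotaurine to taurine, averaged 263 CPM in knockout and 275 CPM in wild-type fat. Pter, which cleaves N-acetyltaurine, had a log2 fold change of 0.25 (adjusted p = 0.573), 0.40 without knockout libraries 2 and 3 and 0.09 without libraries 1 and 4. Ado and Fmo1, like Lrrc8a, Cul2, Slc7a11 and Slc7a9 below, were picked with their values known.

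Among 8 genes of taurine transport besides Slc6a6, the median log2 fold change was -0.06. Slc36a1, a proton-coupled amino acid transporter, averaged 36.9 ± 4.83 CPM in knockout and 45.8 ± 2.75 CPM in wild-type fat (SD, n = 4 each; log2 fold change -0.31, edgeR's adjusted p = 0.184). Without knockout libraries 1 and 4 its log2 fold change was -0.41, and it was called (edgeR's adjusted p = 0.0416). Lrrc8a, the required subunit of the volume-regulated anion channel through which taurine leaves cells, averaged 131 CPM in knockout and 138 CPM in wild-type fat. Lrrc8e, another subunit of that channel, was scarce, at 0.539, 1.56, 1.97 and 1.01 CPM in knockout libraries 1 to 4, against 0.516, 0.294, 0.410 and 0.786 CPM in wild-type libraries 1 to 4 (log2 fold change 1.33, adjusted p = 0.207). Its highest values lay in the knockout libraries with the duct epithelium markers, 2 and 3, and the part of those cells in them was not tested. Lrrc8e had a log2 fold change of 0.67 without these libraries and of 1.79 without libraries 1 and 4, where it was called (edgeR's adjusted p = 0.0357).

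The methionine cycle supplies homocysteine to Cbs. Its 10 tested genes had a median log2 fold change of 0.01, with 5 above 0 and 5 below. Gnmt, a glycine methyltransferase abundant in liver, held 1.08, 1.41, 2.18 and 2.45 CPM in knockout libraries 1 to 4, against 0.774, 0.411, 0.738 and 0.720 CPM in wild-type libraries 1 to 4 (log2 fold change 1.45, edgeR's adjusted p = 0.119). Mat1a, the methionine adenosyltransferase of liver, had 23, 11, 13 and 52 reads in knockout libraries 1 to 4, against 0, 1, 9 and 0 reads in wild-type libraries 1 to 4 (adjusted p = 0.171). The highest Mat1a values fell in knockout libraries 1 and 4, which also held the most RNA of liver markers, 62.3 and 98.3 CPM; the part of that RNA in the Mat1a counts was not tested.

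Genes that take up or use cysteine had 16 tested members, 10 above and 6 below 0, with a median log2 fold change of 0.13. Gclm, the modifier subunit of the enzyme that joins cysteine to glutamate in glutathione synthesis, had 62.2, 65.3, 57.5 and 71.7 CPM in knockout libraries 1 to 4, against 45.4, 49.8, 52.5 and 45.5 CPM in wild-type libraries 1 to 4. The genotypes did not overlap (log2 fold change 0.41, edgeR's adjusted p = 0.0944). Chac1, which degrades glutathione, averaged 13.8 ± 3.33 CPM in knockout and 7.85 ± 2.78 CPM in wild-type fat (SD, n = 4 each; log2 fold change 0.81, adjusted p = 0.180). Slc7a11, the cystine-glutamate exchanger, ran from 1.29 to 2.85 CPM in knockout and 0.720 to 2.24 CPM in wild-type libraries (log2 fold change 0.82, adjusted p = 0.375). Slc7a9, a cystine transporter of epithelia, did not pass the filter on low counts with all 8 libraries. It had 5, 336, 372 and 29 reads in knockout libraries 1 to 4, against 1, 0, 0 and 1 reads in wild-type libraries 1 to 4, and its 2 high libraries were those with the duct epithelium markers. Slc7a9 passed the filter and was called without knockout library 1 (log2 fold change 8.60, edgeR's adjusted p = 0.0267). The same held without knockout libraries 1 and 4 (9.12, adjusted p = 1.85e-05).

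Sulfide and thiosulfate genes, 8 tested, had a median log2 fold change of 0.08, and 0 reached an unadjusted p under 0.05 with edgeR. Suox, the sulfite oxidase, had a log2 fold change of 0.30 (adjusted p = 0.481), -0.03 without knockout libraries 2 and 3 and 0.57 without libraries 1 and 4. Ccbl2, a cysteine conjugate beta-lyase, had -0.25 (adjusted p = 0.394), and -0.16 without knockout libraries 2 and 3. In the malate-aspartate shuttle, where Got1 also acts, 5 of 6 tested genes had a positive log2 fold change, with a median of 0.20. Slc25a13, the aspartate-glutamate carrier citrin, held 3.001, 6.89, 6.40 and 2.55 CPM in knockout libraries 1 to 4, against 2.41, 2.53, 1.80 and 1.18 CPM in wild-type libraries 1 to 4 (log2 fold change 1.24, edgeR's adjusted p = 0.179). It followed Cbs and Got1 in being highest in knockout libraries 2 and 3, and its log2 fold change was 0.49 without them. Without libraries 1 and 4 it was 1.73, and Slc25a13 was called (edgeR's adjusted p = 0.0115).

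Genes of cullin-elongin ubiquitin ligases, which hold the partners of leucine-rich repeat receptors, were measured too. The 7 tested genes were Cul2, Cul5, Tceb1, Tceb2, Rbx1, Rnf7 and Nedd8. Their log2 fold changes ran from -0.12 to 0.14 with a median of 0.09, and 0 had an unadjusted p under 0.05 with edgeR. Rbx1, the RING subunit, averaged 32.8 ± 1.12 CPM in knockout and 35.6 ± 1.25 CPM in wild-type fat (SD, n = 4 each), without overlap (log2 fold change -0.12, edgeR's adjusted p = 0.429). Cul5 had a log2 fold change of -0.11 (adjusted p = 0.481), -0.05 without knockout libraries 2 and 3 and -0.19 without libraries 1 and 4, and Cul2 one of -0.07 (adjusted p = 0.713). The Lrrc58 log2 fold change was -0.52, but Lrrc58 was picked with this contrast in view, so nothing is read from setting it beside these genes.

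**Figure D4:**
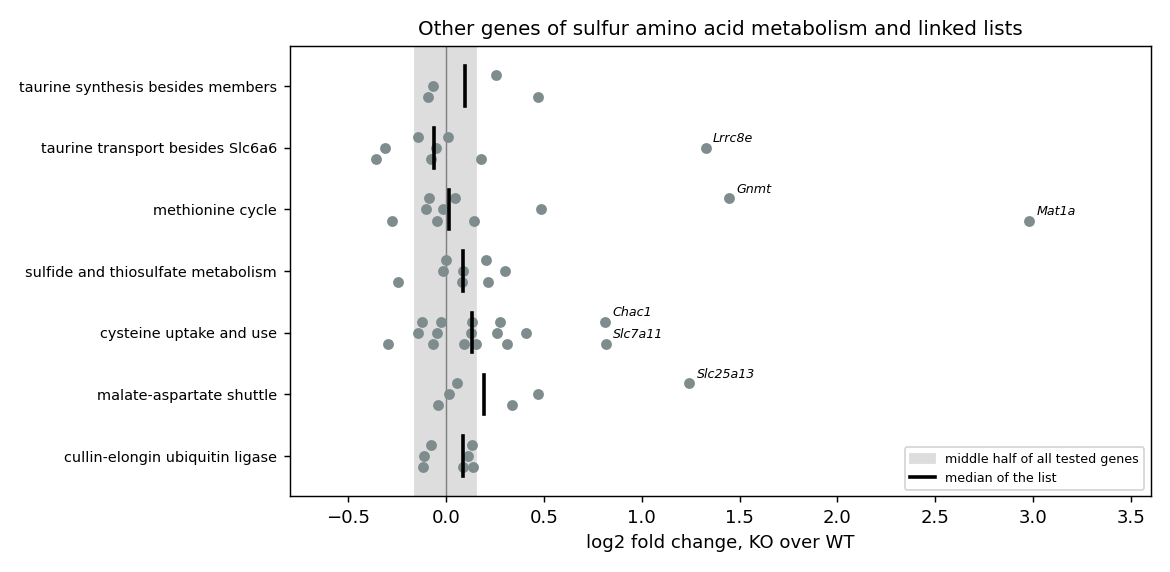
Log2 fold change (knockout over wild-type, horizontal axis) of 58 tested genes in 7 lists, a point per gene and a black line at each list's median, over a grey band between the lower and upper quartile of all tested genes. List medians run from -0.06 to 0.20, and Mat1a, Gnmt, Lrrc8e and Slc25a13 lie farthest to the right.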

How the data were processed

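Polyadenylated RNA from epididymal fat was made into stranded TruSeq libraries and sequenced as single reads of 50 cycles, per the labels' protocols. Build mm10, Novoalign 2.8.1 and Picard come from the submitters' processing notes. The sources used here do not name the counting program, its strand setting or the annotation. Raw counts per gene and FPKM values stand side by side in a single table that the authors deposited, per the file headers. Each of the 158499 FPKM values above 0 equals, within 0.1%, the count scaled by the gene's exonic length and the library total. Groups and mouse numbers came from the sample titles, and total counts were 10986375 to 21688464 per library. No pair of libraries within a genotype agreed within sampling noise (chi-square per gene of at least 20.8), so all 8 were kept. Each library is a mouse, so p-values weigh the genotype difference against the variation between these mice.

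Counts were analysed in R 4.3.3 with edgeR 4.0.16: filterByExpr with a minimum count of 10, TMM scaling, and the quasi-likelihood F test with no covariate and Benjamini-Hochberg adjustment over 14800 genes, called at 0.05. Standard errors are the log2 fold change over the root of the F statistic. On simulated counts for the 14800 genes of the KO against WT comparison, the test recovered 22.45% of genes changed 1.5-fold and 52.0% of those changed 2-fold. The simulation drew each gene independently, with planted changes of 1.5- to 4-fold and no RNA of other tissues shared between genes. These rates thus need not hold for the real libraries. Likeness used log2 CPM with a prior count of 2. Alternatives were other scalings and filters, DESeq2 1.42.0, limma-voom (limma 3.58.1), robust edgeR, a block on the mouse number, and libraries left out. The members, gene lists and tests were chosen with earlier results of these data known. The text names the 7 members, Atg3, every called gene and the 2 genes of lowest adjusted p in each list, the 5 genes most like Lrrc58, and others marked where they appear. Of the 7 members, only Lrrc58 overlaps another gene model of the file, Gm15725. Some results are not reported here.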

Additional observations from a re-analysis of the deposited data

Results flagged for a closer look

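Cth stood out for a single library in each genotype. Knockout library 2 held 11.04 CPM, with a gap to the next library that took up 0.913 of the range of the 4 knockout libraries. Wild-type library 3 held 7.30 CPM, with a gap of 0.847 of the range of the 4 wild-type libraries. Both gaps exceed Dixon's critical value of 0.829 for 4 samples. Over the 14 groups examined (7 genes in 2 genotypes), chance flags about 1 in 20. Knockout library 2 also carried 500.2 CPM of duct epithelium markers. Knockout library 3 carried 519 CPM of them and held 7.42 CPM of Cth, the lowest knockout value. The part of duct epithelium in the Cth levels was not tested.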

How the results depend on the processing

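Lrrc58, Cdo1, Csad, Cth, Cbs and Got1 kept their direction in all 19 alternatives. With each library left out in turn, log2 fold changes ran from -0.55 to -0.50 for Lrrc58, 0.61 to 0.78 for Got1, 0.52 to 0.88 for Cbs and -0.33 to 0.08 for Slc6a6 (0.082 without wild-type library 1, the reverse of its direction with all 8), and the number called ran from 0 to 2 members, 0 to 1 pathway genes and 0 to 290 genes in all. DESeq2 called 2 members (Got1 at 0.69 was added), 2 pathway genes and 813 genes in all, against 60 for edgeR. Library size scaling called 1 pathway gene. Without knockout libraries 2 and 3, 0 members and 3 genes in all were called, Lrrc58 was at -0.49 (not called), and Suox turned to -0.027. Without libraries 1 and 4, 3 members (Cbs at 1.11 and Got1 at 0.88 were added), 5 pathway genes and 1469 genes in all were called. Such fits use fewer libraries, and the cause of these shifts was not tested. With the replicate number as a block, 0 members and 14 genes in all were called and Lrrc58 was at -0.52 (adjusted p = 0.113); the Atg3 call was lost too, at -0.73 (adjusted p = 0.111). The numbers share no stated source, and deviations of same-numbered libraries correlated at 0.18, -0.11, -0.31 and 0.04, so they were not taken as pairs. Of 13 named pathway genes, 12 kept their direction in every alternative that gave them a value, 17 for Mat1a, 18 for Lrrc8e and 19 for the others. Depth limits Cth, Mat1a, Gnmt and Lrrc8e, which rest on few reads.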
